A study of Mus musculus with 30 samples.

Results

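The change in microglial gene expression between day 35 and day 21 of experimental autoimmune encephalomyelitis (EAE) was compared between mice with an inducible, Cx3cr1-driven loss of Atg7 (KO) and wild-type mice (WT). The measure was a difference of differences, the day 35 minus day 21 change in KO minus the same change in WT, called the interaction below. It rests on 15 of the 30 libraries of the series, chosen by the group named in each title: 4 of KO at day 35, 4 of KO at day 21, 4 of WT at day 35 and 3 of WT at day 21. The KO genotype was Atg7fl/fl Cx3cr1CreERT. The WT genotype was Atg7wt/wt Cx3cr1CreERT2, so all 4 groups carried an inducible Cre driven by the Cx3cr1 promoter, and all were young C57BL/6 mice. Every group received 4 mg tamoxifen 3 times, 48 h apart, and at least 18 days later the same immunization with recombinant mouse MOG, residues 1 to 125, and pertussis toxin. Cells from dissociated central nervous system were sorted on CD11b and intermediate CD45 without Ly6G, and/or on eYFP, and cells of females and males were pooled. Bulk RNA was sequenced after a stranded total RNA library kit for small inputs (SMARTer Pico). The sources used here give neither the gate of each library, nor the deleted Atg7 exon, nor whether libraries of 1 group came from separate mice, so the p-values measure the spread between these libraries, which may be partly technical. The sample names hold 2 ID numbers per library, but 1 for day 35 KO 2 and for day 21 WT 3. None is shared between libraries, and the labels do not tie them to mice.

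Microglia are the resident macrophages of the brain and spinal cord. In inflamed or demyelinated tissue they lower genes of the resting (homeostatic) state, such as P2ry12, and raise genes of a disease-associated state, such as Apoe and Lpl, while interferons from infiltrating lymphocytes induce guanylate-binding proteins and other antiviral genes. Atg7 is an E1-like enzyme needed to attach LC3 to the growing autophagosome membrane, and Cx3cr1, the promoter used for Cre here, is active in microglia and also in other macrophages and in monocytes.

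Total counts ran between 5572534 and 11034565 per library with a median of 6773769, and day 21 WT 3 was the deepest. The microglial markers Csf1r, Tmem119, P2ry12 and Sall1 were above 300 CPM (counts scaled by library size and TMM) in all 15 libraries. Principal component 1 (41.7% of the variance) set the 4 day 21 KO libraries, between −68.8 and −61.3, apart from the other 11, between 3.44 and 50.9. The pools were uneven in sex, and unevenly so between the groups. Xist, from the inactive X chromosome, ranged between 600 and 1900 CPM in day 35 KO, 70.1 and 774 in day 21 KO, 59.0 and 1827 in day 35 WT, and 1457 and 2045 in day 21 WT. Y-linked genes outnumbered Xist in day 21 KO 2, day 21 KO 4 and day 35 WT 3. Day 35 WT 3 is wild type by its title but KO by its knockout status, and the title was followed.

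**Figure D1:**
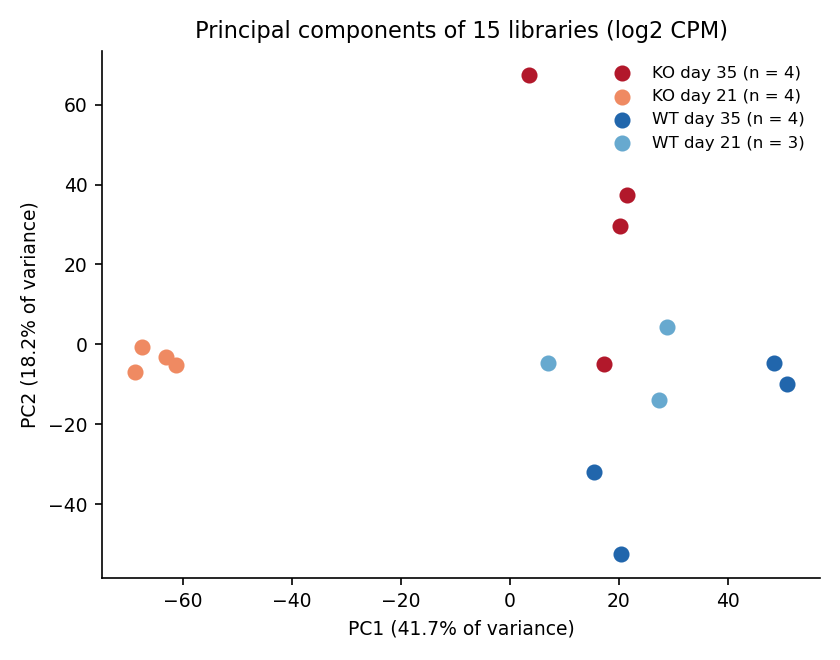
Principal components of log2 CPM in the 15 libraries, each point a library coloured by group. On the horizontal axis (PC1, 41.7% of the variance) the 4 day 21 KO libraries lie below −61 and all others above 3, and on the vertical axis (PC2, 18.2%) day 35 KO 4 lies highest.

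Atg7 (ENSMUSG00000030314, chr6:114643097-114860614 on GRCm38) served as a check of the labels. Its level was 33.3, 32.5, 30.3 and 33.8 CPM in day 35 KO, 31.7, 31.0, 31.7 and 36.9 in day 21 KO, 23.7, 21.3, 23.8 and 21.4 in day 35 WT, and 19.8, 25.3 and 24.6 in day 21 WT. KO libraries lay above WT libraries on both days without passing the test (log2FC 0.53, SE 0.30, adjusted p = 0.338 at day 35; 0.50, SE 0.32, adjusted p = 0.303 at day 21). The interaction of Atg7 was 0.03 (SE 0.44, adjusted p = 0.982). The counts cover the whole gene and the deleted exon is not given, so they do not show whether the deletion took place.

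KO microglia changed far more between the days than WT microglia did. Of 13880 genes tested, 3462 (24.9%) were called between day 35 and day 21 in KO, 1843 higher (13.3%) and 1619 lower (11.7%), at a Benjamini-Hochberg adjusted p below 0.05 in edgeR's quasi-likelihood test. In WT 9 genes (0.0648%) were called, 1 higher (0.0072%) and 8 lower (0.0576%), and 935 had an unadjusted p below 0.05. The 9 were the interferon-induced Dhx58, Ifit1, Ifit3, Oasl1, Oas1a and Irgm1, the antigen-presentation genes Tap1 and H2-T22, and Gimap6, which alone was higher. They are named because the count is small, and after their values were seen. The median absolute log2 fold change over all genes was 0.32 in KO and 0.16 in WT. WT at day 21 had 1 library fewer than the other groups.

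The difference between these changes was itself tested, and 370 genes (2.67%) were called, 258 with a higher day change in KO (1.86%) and the rest with a lower one (0.807%). Of the 258, 253 rose in KO between the days and 5 were called in neither genotype. Of those with a lower interaction, all but 1 had a called fall in KO, and 1 (Irgm1) also had a called fall in WT. At the edge of the threshold, Pid1 had an interaction of −0.69 (adjusted p = 0.0499) and Pcsk7 one of −0.58 (adjusted p = 0.0501). The median interaction over all genes tested was 0.0046.

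**Figure D2:**
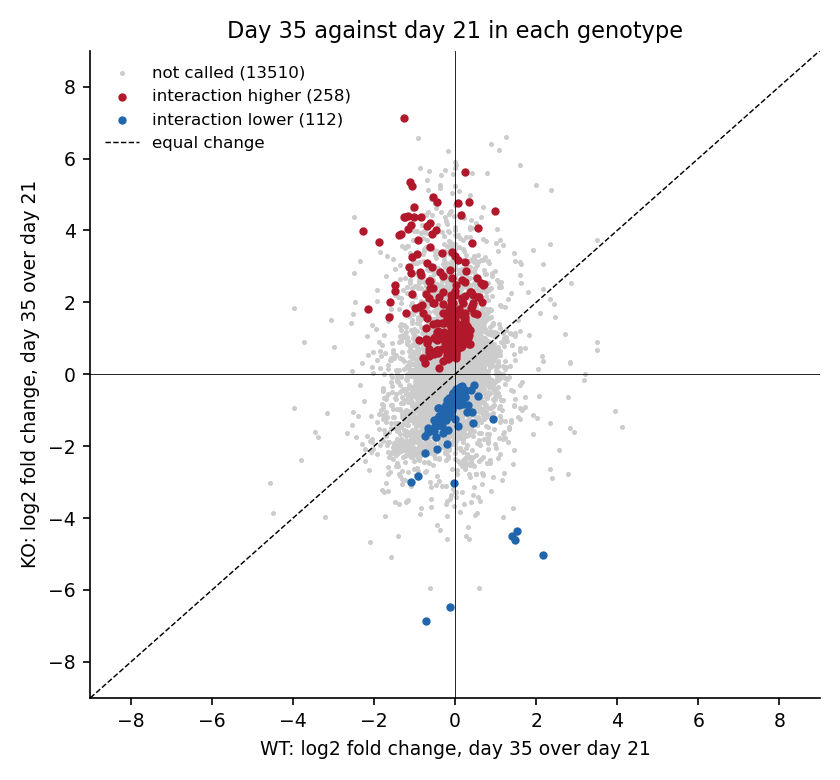
Log2 fold change between day 35 and day 21 in KO (vertical) against that in WT (horizontal) for 13880 genes, with the 258 genes of higher interaction and those of lower interaction coloured and the dashed line marking equal change. The coloured genes spread mainly along the vertical axis, and some also lie away from 0 on the horizontal one (Hbb-bt at −1.26, Gbp5 at −0.74).

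Most of these genes were called between the genotypes at day 21 and not called at day 35, which does not show that the genotypes were alike at day 35. Of the 258 with a higher interaction, 200 were lower in KO at day 21 and not called at day 35. A further 10 were lower in KO at day 21 and higher at day 35, 23 were higher in KO at day 35 alone, 3 were lower on both days and 22 were called on neither. Of those with a lower interaction, 3 (Cflar, Slco4a1 and Tm6sf1) were lower in KO at day 35 alone, 5 were called on neither day, and the rest were higher in KO at day 21 and not called at day 35. Over all genes 363 (2.62%) were called between the genotypes at day 35, 248 higher in KO (1.79%) and 115 lower (0.829%). At day 21 it was 2642 (19%), 1274 higher (9.18%) and 1368 lower (9.86%). These comparisons use the same libraries as the interaction, so the counts describe its shape and add no evidence for it. Leaving out 1 library moved the count of 370 by over 1.5 times for day 21 WT 2 (123 called), day 21 WT 3 (143), day 35 WT 1 (176), day 35 WT 2 (209), day 35 KO 1 (216), day 35 KO 2 (224) and day 21 KO 2 (54.6% of the 370 still called). With a covariate for sex (log2 Y-linked over Xist counts) 135 were called, and 33.5% of the 370 were among them.

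Most homeostatic microglial genes were lower in KO at day 21 and higher in KO at day 35 than at day 21. Of 38 measured, 25 rose in KO between the days and none in WT, and 4 had a higher interaction and none a lower one. The list's median was 0.82 in KO, 0.14 in WT and 0.58 for the interaction, beside 0.0046 over all genes. At day 35 none of the 38 was called between the genotypes, whereas 28 were lower in KO at day 21. Over all genes tested, 13.3% rose in KO, 1.86% had a higher interaction and 9.86% were lower in KO at day 21. The count of 4 was 2 without day 21 WT 2 or day 21 WT 3 and 7 without day 35 KO 4 or day 35 WT 3.

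Gpr34 (chrX:13632089-13640858), a lysophosphatidylserine receptor of microglia, was at 594, 650.0, 582 and 398 CPM in day 35 KO, 113, 103.3, 130.4 and 109 in day 21 KO, 667, 707, 909 and 880.0 in day 35 WT, and 523, 572 and 699.8 in day 21 WT. The 4 day 21 KO libraries lay below all others, and the day 35 KO libraries below those of day 35 WT. Its interaction was 1.89 (SE 0.33, adjusted p = 0.0017), from a rise of 2.29 in KO (SE 0.23, adjusted p = 1.24e-07) and a change of 0.40 in WT (SE 0.24, adjusted p = 0.852).

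Fcrls, an Fc receptor-like gene used as a microglial marker in mice, was at 498, 546, 540.0 and 414 CPM in day 35 KO, 167, 137.8, 188 and 151 in day 21 KO, 544, 616, 779 and 669 in day 35 WT, and 540.1, 513 and 644 in day 21 WT. Day 35 KO and day 35 WT overlapped, and day 21 KO again stood alone. The interaction of Fcrls was 1.43 (SE 0.27, adjusted p = 0.00285). The protease inhibitors Cst3 (interaction 1.54, SE 0.38, adjusted p = 0.0278) and Serpine2 (1.28, SE 0.29, adjusted p = 0.0151) had the same shape, with 1196 to 1525 CPM of Cst3 in day 21 KO and at least 3759 in every other library.

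P2ry12, the ADP receptor that marks resting microglia, was at 1187, 1232, 1052 and 787 CPM in day 35 KO, 349.7, 324.1, 374 and 347 in day 21 KO, 1416, 1688, 2045 and 1937 in day 35 WT, and 1172, 1242 and 1429 in day 21 WT. It rose in KO (1.61, SE 0.24, adjusted p = 2.8e-05), but its interaction of 1.14 (SE 0.35) had an adjusted p of 0.0683. The fractalkine receptor Cx3cr1 rose in KO (1.64, SE 0.45, adjusted p = 0.01) with an interaction of 1.46 (SE 0.64, adjusted p = 0.209) and a wide spread within day 21 KO, where it ran between 91.0 and 550 CPM. Itgb8, a subunit of the integrin that activates latent TGF-beta, was the 1 called of 24 genes of microglial identity and TGF-beta signalling (interaction 3.56, SE 0.70, adjusted p = 0.0042), at 2.68 to 5.59 CPM in day 35 KO, 0.186 to 0.942 in day 21 KO, 0.715 to 1.88 in day 35 WT and 1.67 to 2.20 in day 21 WT.

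**Figure D3:**
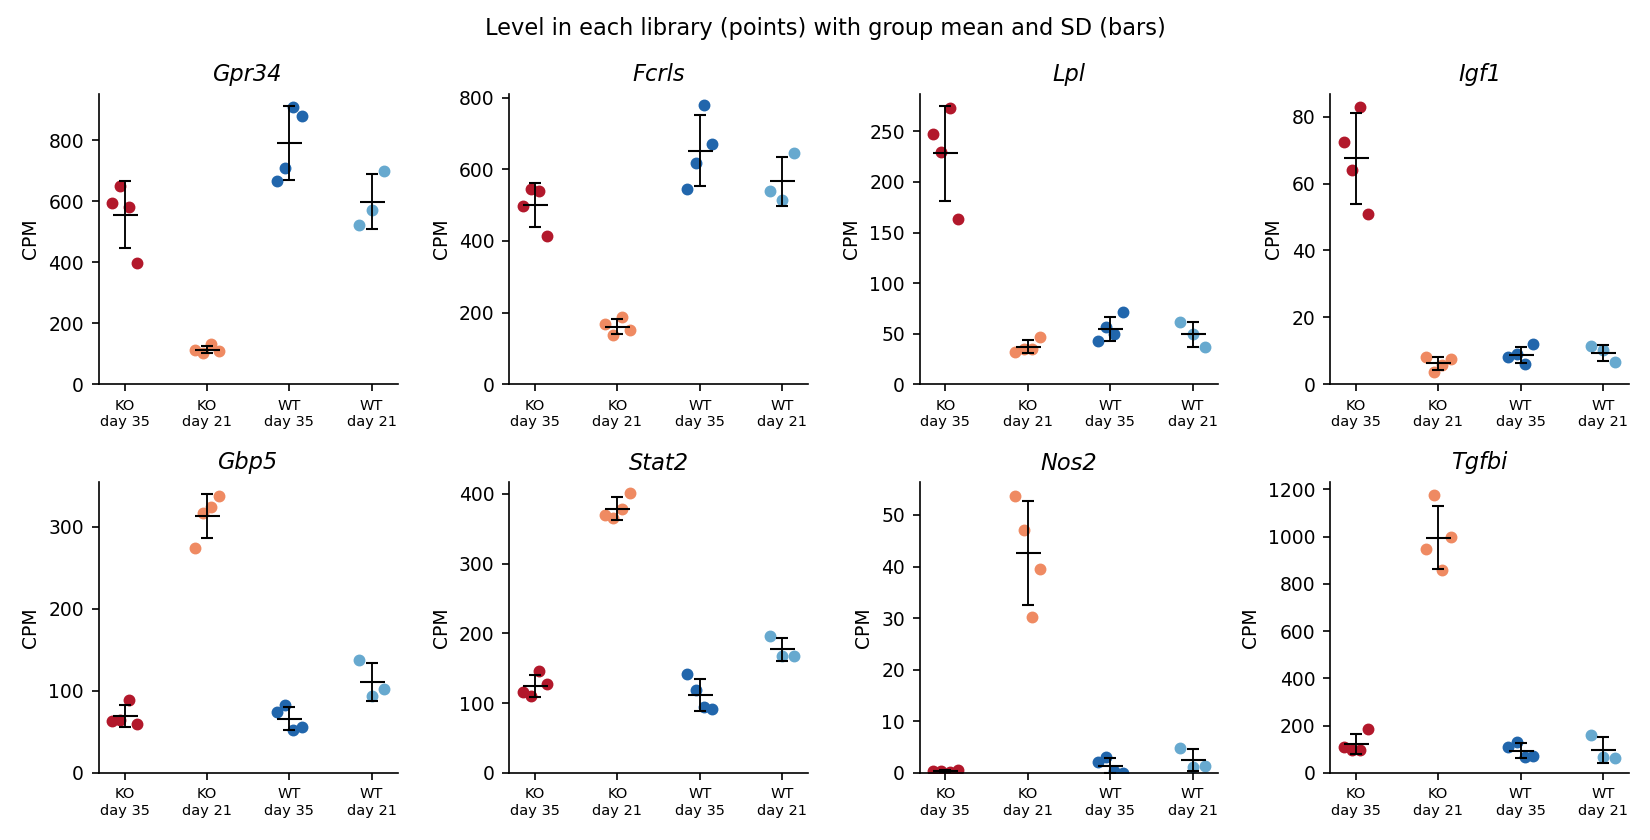
Level in CPM (vertical axes, starting at 0) of 8 genes in each library (points), with group mean and SD (bars), for day 35 KO, day 21 KO, day 35 WT and day 21 WT (n = 4, 4, 4 and 3). Day 21 KO stands apart for Gpr34, Fcrls, Gbp5, Stat2, Nos2 and Tgfbi, and day 35 KO for Lpl and Igf1.

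Genes of disease-associated microglia formed the other main shape, in which day 35 KO stood apart. Of 33 measured, 7 had a higher interaction and none a lower one (median 0.92), 14 rose in KO (median 0.61) and none was called in WT (median −0.21). The count of 7 was 4 without day 21 WT 2 or day 21 WT 3. At day 35, 13 of the 33 were higher in KO and none lower. Over all genes tested, 1.86% had a higher interaction, 13.3% rose in KO and 1.79% were higher in KO at day 35. Of the 7, 4 (Lpl, Igf1, Csf1 and Cd63) were higher in KO at day 35 alone, Ank was lower in KO at day 21 and higher at day 35, and Timp2 and Cd9 were lower at day 21 alone.

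Lpl (chr8:68880491-68907448) encodes lipoprotein lipase, which frees fatty acids from lipoproteins. It was at 247, 229.7, 273 and 163.4 CPM in day 35 KO, 32.3, 34.7, 34.6 and 46.8 in day 21 KO, 43.0, 56.3, 49.6 and 71.0 in day 35 WT, and 61.5, 49.8 and 36.8 in day 21 WT. All 4 day 35 KO libraries exceeded the other 11, which overlapped each other. The interaction was 2.46 (SE 0.39, adjusted p = 0.00116), with 2.62 in KO (SE 0.27, adjusted p = 3.33e-07) and 0.16 in WT (SE 0.29, adjusted p = 0.984).

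Igf1 (chr10:87858265-87937042), the growth factor IGF-1, was at 72.3, 64.1, 82.9 and 50.8 CPM in day 35 KO, 8.17, 3.71, 5.71 and 7.56 in day 21 KO, 8.01, 9.13, 5.95 and 11.98 in day 35 WT, and 11.4, 10.1 and 6.73 in day 21 WT. The other groups overlapped each other, and day 35 KO overlapped none of them. Its interaction was 3.49 (SE 0.61, adjusted p = 0.00216), with a change of −0.08 in WT (SE 0.45, adjusted p = 0.999).

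Csf1, a ligand of the receptor on which microglia depend for survival, had opposite day changes in the genotypes. It was at 210.05, 222, 253 and 221 CPM in day 35 KO, 138.2, 134.1, 141 and 139 in day 21 KO, 113, 97.2, 85.9 and 104.2 in day 35 WT, and 155, 159 and 151 in day 21 WT. Day 35 lay above day 21 in KO (0.71, SE 0.22, adjusted p = 0.0214) and below it in WT, where the change of −0.63 did not pass the test (SE 0.24, adjusted p = 0.511). The interaction of Csf1 was 1.35 (SE 0.33, adjusted p = 0.0266), and its call was lost in 8 of 26 processing alternatives.

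Ank, a transporter of pyrophosphate, had an interaction of 1.95 (SE 0.31, adjusted p = 0.00112), and the metalloproteinase inhibitor Timp2 one of 1.35 (SE 0.22, adjusted p = 0.00112). Ank ran between 46.2 and 58.4 CPM in day 35 KO, 8.45 and 15.6 in day 21 KO, 22.5 and 34.8 in day 35 WT, and 24.7 and 27.3 in day 21 WT, so KO crossed the WT level between the days. The tetraspanin Cd9 (1.24, SE 0.28, adjusted p = 0.017) ended at 233 to 383 CPM in day 35 KO, overlapping the 199 to 342 CPM of day 35 WT.

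Apoe, the main lipid carrier of the brain, did not pass the interaction test in spite of its size (1.98, SE 0.74, adjusted p = 0.141). It was at 24409, 20862, 37899 and 16107 CPM in day 35 KO, 10532, 13279.7, 11596 and 12664 in day 21 KO, 3782, 4245, 5377 and 7966 in day 35 WT, and 8914, 11847 and 9849 in day 21 WT. KO lay higher at day 35 than at day 21 and WT lower, both without overlap, and neither change was called (KO 1.05, adjusted p = 0.137; WT −0.93, adjusted p = 0.834). Its neighbour Apoc1 passed (interaction 2.91, SE 0.76, adjusted p = 0.0391), but its call was lost in 18 of 26 alternatives, so the 2 genes are not shown to differ. Apoc1 was at 15.8 to 47.0 CPM in day 35 KO, 7.69 to 9.19 in day 21 KO, 1.88 to 4.47 in day 35 WT and 5.53 to 8.05 in day 21 WT.

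The other lipid lists held at most 2 calls each, with Lpl counted in more than 1 list, where 1.86% of all genes tested were called higher. Of 23 genes of cholesterol efflux and LXR targets, Apoc1 and Lpl had a higher interaction (list median 0.20), and of 28 genes of lipid droplets and fatty acid use, Lpl and Mgll did (median 0.13). Mgll, the lipase that completes triglyceride breakdown, was at 29.5 to 34.02 CPM in day 35 KO, 7.98 to 13.97 in day 21 KO, 26.3 to 39.6 in day 35 WT and 34.1 to 38.7 in day 21 WT (1.46, SE 0.24, adjusted p = 0.00112). None of 32 genes of sterol and fatty acid synthesis was called (median 0.26). The nearest was the desaturase Scd1 (3.70, SE 1.03, adjusted p = 0.0514), at 1.69 to 13.9 CPM in day 35 KO. The scavenger receptor Colec12 was the 1 called of 35 phagocytic and scavenger receptors (3.04, SE 0.70, adjusted p = 0.0206), with 28.7 to 54.5 CPM in day 35 KO and at most 10.2 in the other groups.

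Interferon-induced genes ran the other way: they were highest in day 21 KO and the called members fell in KO by more than in WT. Of 24 interferon-gamma inducible GTPases and factors, 6 (Gbp3, Gbp5, Gbp7, Gbp9, Irgm1 and Igtp) had a lower interaction and none a higher one (median −1.004). In KO 21 fell (median −1.67), and in WT 1 fell (median −0.73). Of 45 genes of the type I interferon response, 4 (Stat2, Parp14, Herc6 and Trim30a) had a lower interaction (median −0.37), 39 fell in KO (median −1.04) and 5 in WT (median −0.78). The count of 6 was 11 without day 35 WT 4, and the count of 4 was 2 without day 21 WT 2 or day 21 WT 3. At day 21, 19 of the 24 and 27 of the 45 were higher in KO, and at day 35 1 and 3 were. Over all genes tested, 9.18% were higher in KO at day 21 and 1.79% at day 35. In KO 11.7% of all genes fell, in WT 0.0576% fell, and 0.807% had a lower interaction.

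Gbp5 (chr3:142493978-142522344), a guanylate-binding protein that promotes inflammasome assembly, was at 62.7, 63.9, 89.0 and 59.8 CPM in day 35 KO, 275, 317.2, 324.3 and 337 in day 21 KO, 74.2, 82.5, 52.1 and 55.9 in day 35 WT, and 137, 93.1 and 101.8 in day 21 WT. Both genotypes were lower at day 35 than at day 21 without overlap, and they overlapped each other at day 35. The interaction was −1.44 (SE 0.25, adjusted p = 0.00157), with a fall of 2.19 on the log2 scale in KO (SE 0.17, adjusted p = 1.92e-09), against −0.74 in WT (SE 0.18, adjusted p = 0.104).

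Irgm1 is an immunity-related GTPase that acts on vacuoles and in autophagy. Its fall was called in both genotypes, alone among the genes with a lower interaction. Its level was 71.0, 70.5, 84.8 and 78.3 CPM in day 35 KO, 212.3, 212.4, 226 and 211.3 in day 21 KO, 88.8, 65.4, 73.0 and 59.2 in day 35 WT, and 124.1, 97.7 and 117 in day 21 WT. The fall was 1.5 on the log2 scale in KO (SE 0.11, adjusted p = 3.99e-10), against 0.66 in WT (SE 0.12, adjusted p = 0.0287), and the interaction −0.84 (SE 0.16, adjusted p = 0.00311).

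Stat2, the transcription factor through which type I interferon acts, was at 115.7, 110.2, 146.3 and 127.6 CPM in day 35 KO, 370.4, 365, 379 and 402 in day 21 KO, 141.7, 118, 94.6 and 91.2 in day 35 WT, and 196, 167.9 and 167 in day 21 WT. The 4 day 21 KO libraries lay far above all others, and the day 35 groups overlapped. The interaction of Stat2 was −0.94 (SE 0.21, adjusted p = 0.0151), and its call was lost in 3 of 26 alternatives. The remaining GTPases had interactions of −1.04 (Gbp7, SE 0.17, adjusted p = 0.00112), −0.98 (Gbp3, SE 0.16, adjusted p = 0.00116), −1.11 (Gbp9, SE 0.24, adjusted p = 0.0128) and −1.03 (Igtp, SE 0.21, adjusted p = 0.00615). Among the type I genes, the poly-ADP-ribose transferase Parp14 had −0.82 (SE 0.16, adjusted p = 0.0052), the ISG15 ligase family member Herc6 −0.82 (SE 0.15, adjusted p = 0.003) and Trim30a −0.52 (SE 0.13, adjusted p = 0.0264). Gbp genes share sequence with each other, so reads may be split among them.

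Since these genes moved together, their promoters (RefSeq, GRCm38.p6, 250 bases before to 50 after the start) were searched on both strands for GAAA, any 2 bases and GAAA again, the core of the interferon-stimulated response element. It was present in 11 of 15 promoters of the interferon-gamma list with an entry (73.3%) and in 16 of 33 of the type I list (48.5%), against 3.99% of all 27025 genes of the table. Of genes with a lower interaction 12.8% of 86 held it, and of those with a higher interaction 4.10% of 195. Among all genes tested with an entry it was 4.07%. The 86 include called members of both lists, with Gbp3, Gbp5, Gbp7, Irgm1, Igtp, Stat2 and Trim30a among the holders. The 12.8% thus restates the list shares in part. A match describes the letters and is not a measured binding site. The following 4 windows of 90 bases upstream of the start, written 5′ to 3′ on the gene's strand with the matches of either strand in capitals, show how the element lies in 4 of the called genes that hold it: Gbp5 at chr3:142496729-142496818 (plus strand), Irgm1 at chr11:48871421-48871510 (minus strand), Igtp at chr11:58199466-58199555 (plus strand) and Stat2 at chr10:128270248-128270337 (plus strand).
Gbp5: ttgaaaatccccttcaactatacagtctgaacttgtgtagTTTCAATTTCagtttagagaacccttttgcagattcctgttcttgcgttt
Irgm1: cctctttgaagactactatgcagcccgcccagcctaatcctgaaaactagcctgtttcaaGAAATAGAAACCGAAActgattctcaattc
Igtp: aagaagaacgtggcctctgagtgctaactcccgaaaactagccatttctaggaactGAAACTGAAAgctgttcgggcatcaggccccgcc
Stat2: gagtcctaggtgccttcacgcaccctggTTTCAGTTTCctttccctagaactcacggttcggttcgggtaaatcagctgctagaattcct
The first match began 165 bases before the start in Gbp5, 30 in Irgm1, 34 in Igtp and 222 in Stat2. Irgm1 holds 2 overlapping matches. The called gene Herc6 had no match upstream of its start, nor had another promoter entry of Gbp3 and of Trim30a.

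Genes of antigen presentation fell in KO, and 1 of them was called in the interaction. Of 22 genes of MHC class I presentation, 15 fell in KO and 2 in WT, and none was called in the interaction (median −0.13). Over all genes tested, 11.7% fell in KO and 0.0576% in WT. Tap1, a subunit of the peptide transporter, fell in KO (−1.27, SE 0.14, adjusted p = 1.75e-07) and in WT (−0.81, SE 0.15, adjusted p = 0.0287), with an interaction of −0.46 (SE 0.20, adjusted p = 0.206). Of 12 genes of class II presentation, 8 fell and 1 rose in KO (median −0.97) and none was called in WT (median −0.42), with a median interaction of −0.55. Ifi30, a lysosomal thiol reductase that prepares antigens, was the 1 called in the interaction (−0.84, SE 0.20, adjusted p = 0.0183), and none was without day 21 WT 2 or day 21 WT 3.

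The genes with the lowest interactions were highest in day 21 KO. Nos2 (chr11:78920787-78960254), the inducible nitric oxide synthase, was at 0.297, 0.299, 0.141 and 0.621 CPM in day 35 KO, 53.7, 47.1, 30.2 and 39.6 in day 21 KO, 2.14, 3.04, 0.313 and 0 in day 35 WT, and 4.86, 1.02 and 1.31 in day 21 WT. Summed over the group the counts were 10 in day 35 KO and 1064 in day 21 KO, a ratio of 0.00828 (95% counting interval 0.00396 to 0.0153). Its interaction was −6.14 (SE 1.49, adjusted p = 0.0272), lost in 9 of 26 alternatives, and it was the 1 called of 12 genes of arginine and nitric oxide metabolism.

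Tgfbi, a matrix protein made by monocytes and macrophages, was at 110.1, 94.6, 98.4 and 187 CPM in day 35 KO, 945, 1174, 858 and 998 in day 21 KO, 109, 129.9, 65.6 and 70.7 in day 35 WT, and 159.9, 66.3 and 63.8 in day 21 WT. Day 21 KO exceeded every other library, and the remaining 3 groups overlapped. The interaction was −2.98 (SE 0.74, adjusted p = 0.0305), lost in 11 of 26 alternatives. The growth factor Hgf (−1.75, SE 0.43, adjusted p = 0.0245), the surface antigen Ly6a (−1.91, SE 0.38, adjusted p = 0.00501), the matrix protein Spon1 (−1.91, SE 0.43, adjusted p = 0.0151), the cell-cycle inhibitor Cdkn1a (−1.35, SE 0.35, adjusted p = 0.0349) and the dNTP hydrolase Samhd1 (−1.37, SE 0.27, adjusted p = 0.0053) likewise peaked in day 21 KO. Il2rb, an interleukin 2 receptor subunit of lymphocytes, was at 0.124 to 0.446 CPM in day 35 KO, 3.70 to 7.98 in day 21 KO, 0 to 1.14 in day 35 WT and 0 to 0.586 in day 21 WT (−5.90, SE 1.30, adjusted p = 0.012).

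Markers of monocytes moved in the same direction as the interferon genes and Tgfbi, and opposite to the homeostatic genes. The 16 markers summed to 1062 to 1613 CPM in day 35 KO, 2774 to 3836 in day 21 KO, 124.3 to 403 in day 35 WT and 216 to 606 in day 21 WT, with 1 member at 0 in day 21 WT. Of the 15 tested, 11 were higher in KO at day 21, 6 fell in KO between the days and none was called in the interaction (median −1.87). The shares over all genes tested were 9.18% higher in KO at day 21 and 11.7% fallen in KO. The defining monocyte gene Ly6c2 was at 0.704 to 10.4 CPM in day 35 KO, 22.4 to 39.0 in day 21 KO, 0 to 4.72 in day 35 WT and 0.0935 to 2.51 in day 21 WT. Microglia sort markers, 10 in number, summed to 13099 to 18948 CPM in day 35 KO, 11389 to 11895 in day 21 KO, 16614 to 24078 in day 35 WT and 17908 to 20633 in day 21 WT. The part of these markers in the results above was not tested, and fewer cells of a type and less RNA per cell cannot be told apart in sorted bulk samples.

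**Figure D4:**
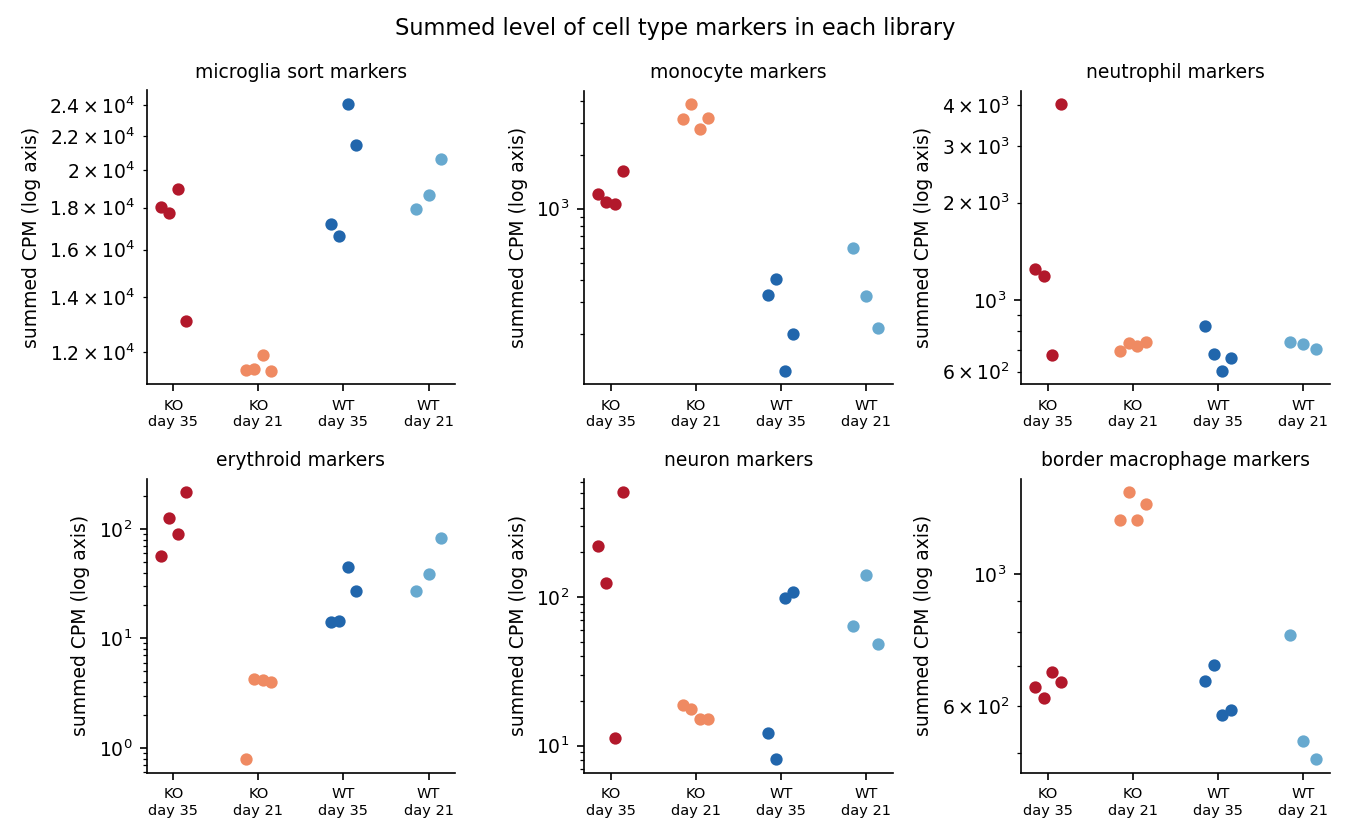
Summed CPM (log axes) of 6 marker lists in each library, by group. Monocyte and border macrophage markers are highest and microglia sort and erythroid markers lowest in day 21 KO, and neutrophil markers reach 4045 CPM in day 35 KO 4.

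Tgm2, a transglutaminase, had the smallest p of the genes with a lower interaction. It was at 106, 108, 115 and 98.3 CPM in day 35 KO, 258, 245, 179.9 and 209 in day 21 KO, 131, 114.1, 124.5 and 105 in day 35 WT, and 111, 88.6 and 91.8 in day 21 WT. Day 21 KO alone was high (interaction −1.35, SE 0.18, adjusted p = 0.000272). The metalloprotease Lmln (−1.02, SE 0.14, adjusted p = 0.000349), the TRAF-type zinc finger gene Trafd1 (−0.88, SE 0.14, adjusted p = 0.00112) and the membrane phosphodiesterase Smpdl3b (−1.79, SE 0.30, adjusted p = 0.00126) had this shape too. The cyclin Ccnj (−1.46, SE 0.30, adjusted p = 0.00556) was also highest in day 21 KO, where its range overlapped that of day 35 WT.

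Of those with a higher interaction, Ptchd1 was at 12.2, 14.2, 13.2 and 9.19 CPM in day 35 KO, 1.10, 0.371, 1.35 and 0.889 in day 21 KO, 8.15, 9.28, 5.79 and 5.77 in day 35 WT, and 4.52, 6.15 and 5.61 in day 21 WT. Its libraries were lowest in day 21 KO and highest in day 35 KO, with some overlap at day 35 (3.25, SE 0.42, adjusted p = 0.000211). The calcium channel subunit Cacna1a (1.70, SE 0.24, adjusted p = 0.000327) was at 57.7 to 86.5 CPM in day 35 KO, 21.2 to 25.3 in day 21 KO, 23.6 to 34.1 in day 35 WT and 29.5 to 38.4 in day 21 WT. The immune surface protein Cd83 (1.41, SE 0.20, adjusted p = 0.000411), the sialyltransferase St8sia6 (3.50, SE 0.52, adjusted p = 0.00112) and the orphan receptor Gpr162 (1.99, SE 0.31, adjusted p = 0.00112) rose in KO in the same way. Cd83 crossed the WT level: it ranged between 265 and 350.5 CPM in day 35 KO, against 164.5 and 239 in day 35 WT, and between 142.1 and 159 in day 21 KO, against 214 and 303.1 in day 21 WT.

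Within the NF-kappaB pathway, 2 of 25 genes were called, in opposite directions (median −0.14). The inhibitor Nfkbia was at 227, 270.3, 295 and 246 CPM in day 35 KO, 186, 176, 143 and 149 in day 21 KO, 137, 107, 148.1 and 141 in day 35 WT, and 173.5, 190.2 and 180.3 in day 21 WT. It was highest in day 35 KO (interaction 1.11, SE 0.20, adjusted p = 0.00191). The mitochondrial superoxide dismutase Sod2, a target of the pathway, was highest in day 21 KO (−1.01, SE 0.27, adjusted p = 0.0406). Of 21 cytokines, Csf1 and Il16 had a higher and Hgf a lower interaction (median 0.20). None of 26 chemokines and receptors was called (median −0.12; the nearest by p were Cxcl12, adjusted p = 0.0676, and Ccl4, adjusted p = 0.0727), nor of 18 inflammasome genes (median −0.21; Il18bp adjusted p = 0.117).

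The autophagy lists held 1 interaction call, which does not set them apart from the 2.67% called over all genes tested. None of 33 core autophagy genes was called in the interaction (median −0.09), and their summed level was 1450 to 1584 CPM in day 35 KO, 1503 to 1640 in day 21 KO, 1497 to 1576 in day 35 WT and 1518 to 1543 in day 21 WT. The LC3 gene Map1lc3a came nearest (0.91, SE 0.28, adjusted p = 0.073). Of 29 autophagy receptors and fusion genes 1 was called, Sqstm1, which encodes p62, a cargo receptor that is itself degraded by autophagy. Sqstm1 was at 226, 235, 257 and 202.8 CPM in day 35 KO, 178, 178, 153.6 and 155 in day 21 KO, 168.7, 151.99, 162.3 and 157 in day 35 WT, and 152.06, 203.7 and 192 in day 21 WT. Day 35 KO was the highest group, with 3 of its 4 libraries above all others and the lowest just under 1 day 21 WT library (interaction 0.66, SE 0.16, adjusted p = 0.0206, lost in 4 of 26 alternatives).

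Of 60 lysosomal genes, 2 had a higher interaction, the tetraspanin Cd63 (1.08, SE 0.30, adjusted p = 0.0495) and the galactosidase Glb1 (1.00, SE 0.26, adjusted p = 0.0346). Another 2 had a lower one, the cathepsin Ctsc (−0.48, SE 0.13, adjusted p = 0.0415) and the proton pump subunit Atp6v1h (−0.59, SE 0.16, adjusted p = 0.0495). The list's median was 0.24. These calls lay close to the threshold: of 26 alternatives Glb1 lost its call in 10, Cd63 in 16, Ctsc in 16 and Atp6v1h in 19, and the count of 4 ran between 0 and 5 without 1 library each. It was at most 2 without any 1 library other than day 35 WT 3 or day 35 KO 4. Cd63 was at 91.0 to 141 CPM in day 35 KO, 56.6 to 72.9 in day 21 KO, 41.99 to 62.6 in day 35 WT and 62.5 to 73.4 in day 21 WT. No member of the complement list was called (20 tested, median 0.20; Cfb −2.57, SE 0.81, adjusted p = 0.0781).

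Most cell cycle genes fell in KO, and none had a called difference of day changes by edgeR. Of 60, 43 fell in KO (median −1.63), beside 11.7% of all genes tested, and none in WT (median −0.72). None was called in the interaction by edgeR (median −0.75), where limma-voom called 15 and DESeq2 none. At day 21, 38 of the 60 were higher in KO than in WT (median 1.86), beside 9.18% of all genes tested. At day 35 none of the 60 was called between the genotypes (median 0.94). Their sum was 517 to 914 CPM in day 35 KO, 1482 to 1852 in day 21 KO, 346 to 444 in day 35 WT and 464 to 779 in day 21 WT. Cdt1, which licenses replication origins, was at 8.59 to 10.2 CPM in day 35 KO, 14.1 to 21.3 in day 21 KO, 7.51 to 9.13 in day 35 WT and 8.88 to 9.52 in day 21 WT (interaction −0.79, SE 0.30, adjusted p = 0.137). Prim1, a primase subunit, gave −1.41 (SE 0.54, adjusted p = 0.145).

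Of the stress genes, the endoplasmic reticulum chaperone Dnajb9 (0.87, SE 0.21, adjusted p = 0.0229) and the transcription factor Ddit3 (0.81, SE 0.20, adjusted p = 0.0232) were called among 27, both low in day 21 KO alone. Of 20 p53 targets, Gadd45b (1.25, SE 0.27, adjusted p = 0.0094) and Perp had a higher and Cdkn1a a lower interaction. Gadd45b was at 26.3 to 39.7 CPM in day 35 KO, 21.3 to 30.4 in day 21 KO, 10.6 to 15.2 in day 35 WT and 18.4 to 26.6 in day 21 WT, and its days overlapped in KO and not in WT. No gene was called among 73 nuclear genes of oxidative phosphorylation (median 0.06; Ndufa6 adjusted p = 0.0677), 8 mitochondrially encoded genes (0.12; mt-Nd3 0.591), 25 of glycolysis (0.00; Eno1 0.051), 18 NRF2 targets (−0.27; Txnrd1 0.202) or 25 immediate-early genes (0.29; Egr1 0.0781).

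**Figure D5:**
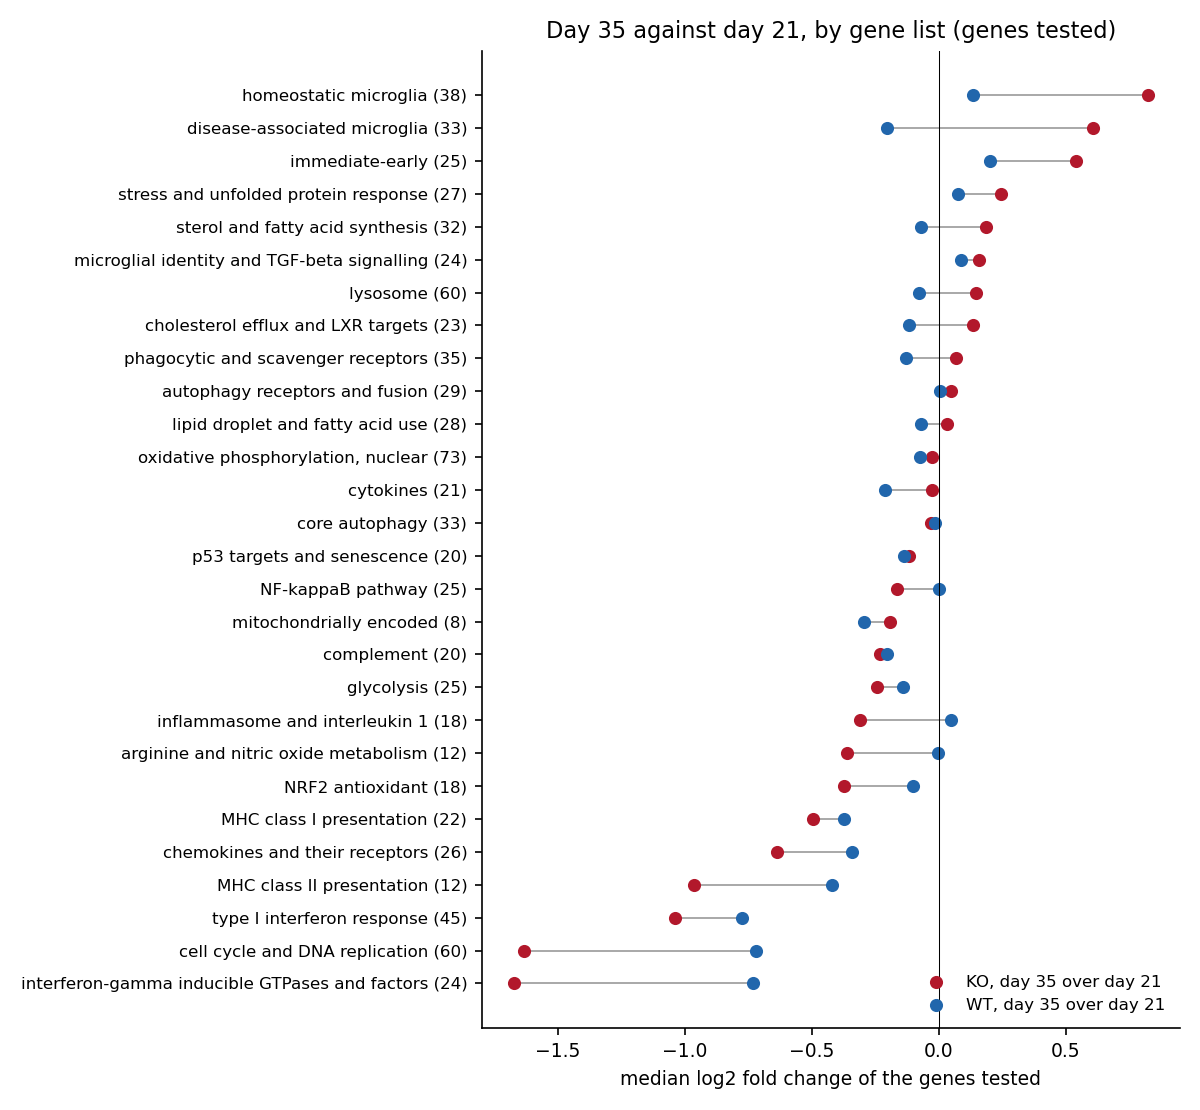
Median log2 fold change between day 35 and day 21 in KO (red) and WT (blue) for 28 gene lists, with the number of genes tested in brackets. The widest gaps are those of the disease-associated, homeostatic, interferon-gamma and cell cycle lists.

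Markers of other cell types took several of the highest places. All 6 erythroid genes tested had a higher interaction (median 5.88), beside 1.86% of all genes tested. Hbb-bt, a beta globin, was at 6.54, 11.7, 13.7 and 22.96 CPM in day 35 KO, 0.157, 0.186, 0 and 0 in day 21 KO, 1.43, 1.37, 5.01 and 1.88 in day 35 WT, and 3.18, 4.54 and 9.35 in day 21 WT. Day 21 KO held 2 counts in all, against 404 in day 35 KO, a ratio of 178 (95% counting interval 48.9 to 1474). Summed erythroid markers were 56.9 to 216 CPM in day 35 KO, 0.785 to 4.27 in day 21 KO, 14.01 to 45.1 in day 35 WT and 27.0 to 83.2 in day 21 WT. Globin genes share sequence, so the split among them is uncertain.

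Neuron markers were led by Camk2a, a kinase of excitatory synapses, at 45.8, 25.6, 6.05 and 70.3 CPM in day 35 KO, 1.57, 2.41, 2.70 and 4.30 in day 21 KO, 5.005, 4.26, 31.3 and 16.9 in day 35 WT, and 22.4, 42.5 and 17.1 in day 21 WT (4.66, SE 0.99, adjusted p = 0.0128). It was the 1 called of 13, and the list's sum ran between 11.3 and 508 CPM within day 35 KO alone. Shank3, Dlgap3, Arpp21 and Rph3a, all neuronal genes among the 10 highest interactions of genes reaching 5 CPM (4.29 to 5.64, adjusted p = 0.0338 to 0.0467), were each highest in day 35 KO 4 and below 1 CPM in day 35 KO 3. Astrocyte markers had 2 of 13 called, Clu (2.25, SE 0.56, adjusted p = 0.0289) and Glul (0.79, SE 0.20, adjusted p = 0.0301), and oligodendrocyte markers 1 of 10, Mbp (1.95, SE 0.53, adjusted p = 0.0483). Of 11 T and NK cell markers, Cd3e and Zap70 had a lower interaction (list median −3.00), both above 1 CPM in day 21 KO alone. At day 21, 9 of the 11 were higher in KO and 1 lower (median 3.09), beside 9.18% and 9.86% of all genes tested. In KO 9 of the 11 fell between the days (median −3.52), beside 11.7% of all genes tested. Of 6 B cell markers Cd79b had a higher interaction (1.61, SE 0.45, adjusted p = 0.0495).

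Neutrophil markers reached their highest summed levels in day 35 KO. Of 18 tested, 7 rose in KO and none in WT, 5 were higher in KO at day 35 (median 5.30), and none was called in the interaction (median 2.93). The shares over all genes tested were 13.3% risen in KO and 1.79% higher in KO at day 35. S100a8, a calcium-binding protein abundant in neutrophils, was at 21.97 to 577 CPM in day 35 KO, 5.18 to 11.7 in day 21 KO, 0.313 to 4.58 in day 35 WT and 1.02 to 3.35 in day 21 WT. Their sum was 676 to 4045 CPM in day 35 KO, 694 to 743 in day 21 KO, 603 to 832 in day 35 WT and 706 to 742 in day 21 WT, highest in day 35 KO 4. Ly6g, whose protein the sort was set to leave out, reached 4.34 CPM in day 35 KO and at most 0.301 elsewhere. Border macrophage markers (14 tested, median −2.15) fell in KO for 8 members, beside 11.7% of all genes tested, and none was called in the interaction. Dendritic cell (8 tested, median 0.30), endothelial and mural (6, 0.55), ependymal and choroid (4, 1.503) and microglia sort markers (10, 0.55) had no member called. Without day 35 KO 4, 9 disease-associated genes were called, against 7 with all libraries. The part of the neutrophil, erythroid, neuron, and T and NK cell markers in the other calls was not tested.

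The clinical score went with these groups as follows. The EAE score was 2.75, 2.75, 3 and 2.5 in day 35 KO, 3, 3, 3 and 2.75 in day 21 KO, 1.5, 1, 1.5 and 1 in day 35 WT, and 2, 3 and 3 in day 21 WT. KO stayed near its day 21 level while day 35 WT lay below every other library. The difference of differences was 1.23 score points (exact permutation of genotype within day, two-sided, 2450 arrangements, p = 0.0510, adjusted p = 0.102 over 2 measures), so it did not pass the threshold. For both measures the null of this permutation was no genotype difference at either day, which is not the same as equal day changes. The mitochondrial share of counts was 6.997 to 8.91% in day 35 KO, 8.35 to 9.12% in day 21 KO, 4.48 to 6.08% in day 35 WT and 6.41 to 8.26% in day 21 WT. This share covers every gene with an mt- name, while the 13 genes of the mitochondrially encoded list summed to 7661 to 8670 CPM in day 21 KO. The share's difference of differences was 1.43 percentage points (exact permutation p = 0.286, adjusted p = 0.286). It was 0.0027 once the 5 most abundant genes of each library were removed from both the mitochondrial and the total counts, which is a narrower measure.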

How the data were processed

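The deposited file holds raw counts per Ensembl gene (46078 genes), made by the authors with CASAVA, bcl2fastq and STAR on GRCm38, per the submitters' processing notes. The sources used here name no versions, counter or strand setting. A second deposited table gives the EAE score and RNA integrity score per library, per the file headers. Of 32 count columns, 2 were not used. Columns were joined to titles by plate well, an inference that matched every title's group. Some count columns have numbers as names and were recorded as an other unit, although the deposited values are whole counts.

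Symbols and coordinates came from GENCODE M21 (GRCm38) and matched 98.2% of genes; genes without a symbol held 0.0552% of counts. All 30 libraries in 8 groups were fitted with edgeR 4.0.16 in R 4.3.3 (filterByExpr, minimum count 10 and total 15; TMM; glmQLFit, robust). P-values were adjusted over the 13880 genes tested (Benjamini-Hochberg) and called below 0.05. SE is the absolute log2FC over the root of F. Counting intervals (95%) cover counting error only. The pipeline was tested on simulated counts.

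Named are Atg7, Cx3cr1, P2ry12, Apoe and Lpl; of called genes with at least 5 CPM in some group and no predicted name, the 10 highest and 10 lowest interactions and the 6 lowest p each way; of a process list up to 4 called members, or the 2 nearest by p; of a marker list the 2 most abundant. Not all are described. Members, lists and tests were chosen with earlier results of these data known. Alternatives were RLE scaling, DESeq2 1.42.0, limma-voom (limma 3.58.1) with sample weights, no filter, a minimum count of 30, the 15 libraries alone, the i5 index as a block, a sex covariate, day 35 WT 3 moved to KO, and leaving out each library.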

Additional observations from a re-analysis of the deposited data

Results flagged for a closer look

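The change between day 35 and day 21 differed between KO and WT for 370 genes in the interaction test described above.

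Of 45 groups of 4 examined, 5 held a library far from the rest, and chance gives about 1 in 20. Neutrophil markers summed to 4045 CPM in day 35 KO 4, against 676 to 1249 in the other day 35 KO libraries. Within day 21 KO, erythroid markers were lowest in replicate 1 (0.785 CPM), ependymal and choroid markers highest in replicate 4 (52.01 CPM), microglia sort markers highest in replicate 3 (11895 CPM), and the EAE score was 2.75 in replicate 4, against 3 in the rest.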

How the results depend on the processing

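The count of interaction genes was 370, and 734 with DESeq2, 2227 with limma-voom, 1104 with the 15 libraries alone, 135 with the sex covariate, 769 with day 35 WT 3 moved to KO, and 123 to 517 without 1 library each. Chosen after seeing the data, leaving out the 3 libraries with more Y-linked than Xist counts gave 161, and leaving out day 35 KO 4 and day 35 WT 3 gave 668. All 370 kept their direction wherever they were tested, and the share called higher was 69.7%, against 55.8% with limma-voom. Leaving out some single library left no call among cytokines, p53 targets, stress genes, autophagy receptors, phagocytic receptors or arginine metabolism. The same held for the neuron, astrocyte, oligodendrocyte, T and NK cell, and B and plasma cell markers. Of 64 named genes called, 28 were called under all 26 alternatives, 36 lost their call in at least 1, and none reversed. Genes printed above without a count of losses are not thereby the firmer ones. Rph3a lost its call in 19, Mbp in 17, and Arpp21 and Il16 in 16. Sod2, Shank3 and Perp lost theirs in 15, Cdkn1a and Dlgap3 in 12, and Cst3, Glul and Trim30a in 10.

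The KO day count was 5757 with limma-voom, 1659 without the 3 libraries, and 2590 to 3548 without 1 library each. For the WT day count of 9 the alternatives gave 77 (DESeq2), 573 (limma-voom), 14 (no filter), 14 (minimum count 30), 190 (15 libraries alone), 22 (i5 block), 0 (sex covariate), 4 (day 35 WT 3 moved), 0 (without the 3 libraries), 16 (without day 35 KO 4 and day 35 WT 3) and 0 to 14 (without 1 library each). KO against WT gave at day 35 723 with DESeq2, 1626 with limma-voom, 143 unfiltered, 1260 with the 15 libraries alone, 170 with day 35 WT 3 moved and 53 to 453 without 1 library each. At day 21 it gave 5208 with limma-voom, 1512 with the sex covariate, 1144 without the 3 libraries and 1358 to 2723 without 1 library each. The cause was not tested.

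The EAE difference ran between 1.06 and 1.56 without 1 library each, and passed the threshold without day 21 WT 1. The mitochondrial difference ran between 1.08 and 2.004, and was 0.0027 with the 5 most abundant genes of each library removed from the mitochondrial and total counts. Among genes not called, Atg7 reversed with day 35 WT 3 moved (−0.023) and ran between −0.036 and 0.13 without 1 library each. Batf3 reversed with the sex covariate (−0.037) and with day 35 WT 3 moved (−0.021). Il7r reversed with day 35 WT 3 moved (0.17) and without day 35 KO 4 and day 35 WT 3 (0.11), and ran between −0.17 and 0.077 without 1 library each. No paired analysis was possible because the labels give no replicate numbers shared between the groups. The i5 index of the library, a technical label shared across groups and not a replicate number, was fitted as a block instead and called 294 genes in the interaction, 281 of them among the 370. Depth limits genes under about 1 CPM, where a library holds few counts.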

Other observations

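Circadian clock genes formed a further group among the interaction calls. The list of 21 genes was written after these values were seen, so its count is a description with no test. Of 19 tested, 6 had a higher interaction, beside 1.86% of all genes tested, and none a lower one (median 0.25, against 0.0046 over all genes). They were the PAR bZIP transcription factors Dbp (interaction 2.28, SE 0.43, adjusted p = 0.00394), Tef (1.02, SE 0.21, adjusted p = 0.00734) and Hlf (1.78, SE 0.39, adjusted p = 0.0104), the REV-ERB repressors Nr1d2 (1.53, SE 0.27, adjusted p = 0.0017) and Nr1d1 (1.76, SE 0.47, adjusted p = 0.0414), and the period gene Per3 (1.29, SE 0.25, adjusted p = 0.00501).

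Dbp was at 48.7, 51.8, 35.2 and 36.9 CPM in day 35 KO, 12.4, 8.35, 9.47 and 7.41 in day 21 KO, 21.2, 24.5, 58.6 and 36.8 in day 35 WT, and 31.5, 42.3 and 38.6 in day 21 WT. Tef was at 125.97, 129.8, 114.1 and 123 CPM in day 35 KO, 63.1, 65.5, 63.4 and 63.1 in day 21 KO, 110.1, 113, 132.3 and 135 in day 35 WT, and 137, 123 and 127.2 in day 21 WT. The 4 day 21 KO libraries were lower than the other 11 for each of the 6 genes. Day 21 KO was also the group farthest from the median of the 4 groups for 216 of the 258 genes with a higher interaction. At day 21 the 6 genes and Csnk1e (−0.52, adjusted p = 0.0041) were lower in KO than in WT. Nfil3 (1.89, adjusted p = 0.000679), Bhlhe40 (1.96, adjusted p = 0.0251), Cry1 (0.85, adjusted p = 0.0193) and Clock (0.37, adjusted p = 0.0335) were higher in KO at day 21. The activators Clock (−0.54, adjusted p = 0.0677) and Arntl (−0.59, adjusted p = 0.424), whose targets these genes are, and Per1 (−0.12, adjusted p = 0.87) were not called. Dbp, Tef, Nr1d2 and Per3 were called under all 26 alternatives, Hlf lost its call in 1 and Nr1d1 in 16. The hour at which tissue was taken is not given in the sources used here, and its part in this pattern was not tested.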
